A study of Mus musculus with 13 samples.

Results

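Liver sections taken 14 d after partial hepatectomy were compared with 0 h sections separately at 5 positions along the lobule, from the portal to the central side. In each section, cells with at least 100 transcript counts were ranked by the Cyp2e1 share of their counts and by the Pck1 share, and the difference of the ranks was cut into 5 equal classes, called layers here. Layer 1 is the Pck1 side, where blood enters the lobule, and layer 5 is the Cyp2e1 side, around the central vein. The rule kept 62471 cells in 5 sections, of 131221 cells in the 13 sections of the series. The 2 sections at 0 h gave 21023 of them and the 3 sections at 14 d gave 41448.

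The mice were male C57BL/6, 2 months old, on regular chow, and the study removed 2/3 of the liver and followed the regrown lobes. The 0 h group (10298 cells in section 1 and 10725 in section 2) is the start of the series, and the 14 d group (11140, 15181 and 15127 cells) was sampled 14 days after surgery. Transcripts of a 100-gene panel were counted as single fluorescent spots in frozen sections by Molecular Cartography, a multiplexed in situ hybridisation method and assigned to cells. Whether the sections are from separate animals is not in the labels, and the p-values therefore measure the spread between sections only. All 3 sections at 14 d lay on slide 3, which held no other time point, and the 0 h sections lay on slides 1 and 2, so slide and time cannot be told apart.

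Hepatocytes divide their work along the blood flow. Portal cells make glucose and urea and break down glutamine, while central cells carry cytochrome P450 enzymes, glutathione transferases and, next to the vein, glutamine synthetase. Wnt ligands and R-spondin released by the endothelium of the central vein keep the central program on through beta-catenin, and Axin2, Rnf43 and Znrf3 are feedback genes of that pathway.

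The 0 h sections held 3814333 and 4000802 counts in cells, and the 14 d sections 7104425, 9619206 and 7345023. Kept cells held on average 366 and 368 counts at 0 h and 637, 633 and 484 at 14 d. The gap was widest on the portal side: layer 1 cells held 306 and 356 counts at 0 h and 726, 713 and 537 at 14 d, whereas layer 5 cells held 507 and 445 against 619, 617 and 490.3. Pck1, the enzyme that commits carbon to glucose synthesis, stood at 74.4 and 125 transcripts per layer 1 cell at 0 h and at 241, 234 and 192 at 14 d. Cyp2e1, the main ethanol-oxidising cytochrome P450, stood at 341 and 279 per layer 5 cell at 0 h and at 299, 301 and 245 at 14 d. At 0 h, 35.2% and 42.1% of cells held no Cyp2e1 count, against 18.01%, 18.4% and 21.4% at 14 d, and layer 1 cells averaged 0.00146 and 0.00233 Cyp2e1 transcripts at 0 h but 1.19, 1.15 and 0.717 at 14 d. Both genes chose the layers, so their values describe the classes. They were left out of the slope test, and although they stayed in the counts of genes called within layers, nothing is read from their calls there.

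**Figure D1:**
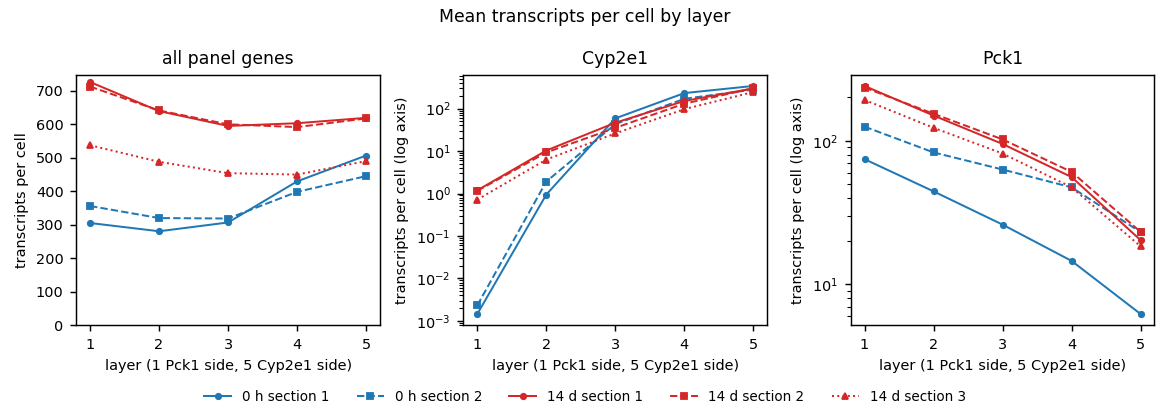
Transcripts per cell by lobule layer (x axis, layer 1 portal to layer 5 central) in the 2 sections at 0 h (blue) and the 3 at 14 d (red): all panel genes on a linear axis, Cyp2e1 and Pck1 on log axes. Cells at 14 d held more transcripts in every layer than the 0 h sections except at layer 5, where the 14 d section with 490.3 lies between the 0 h sections at 445 and 507.

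The layers were checked against genes and positions that the ranking did not use. In all 5 sections Glul, Cyp1a2, Oat and Tbx3 were higher in layer 5 than in layer 1, and Cps1, Arg1, Ass1, Gls2 and Hsd17b13 were lower. Not all members of the central and portal gene lists used below did so. In scaled counts, the portal-listed Prodh and Hpd were higher in layer 5 in both 0 h sections. The central-listed Cldn2 and Znrf3 were lower there than in layer 1 in all 14 d sections. Among the 10 nearest cells of a layer 5 cell, 66.3% and 75.7% lay in layer 5 at 0 h and 72.3%, 73.7% and 73.7% at 14 d, and those of a layer 1 cell lay in layer 1 in 59.7% and 45.0% against 51.2%, 49.7% and 50.4%. At most 0.0860% of the nearest cells of one end lay at the other end in any of these sections. When the rank came instead from Cyp1a2, Oat and Glul against Gls2, Cps1 and Arg1, 40.0% to 47.7% of cells kept their layer and 79.5% to 91.7% stayed within 1 layer of it. Across the 10 pairs of sections, 0 to 2 cell names were shared and none had the same counts.

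The genes whose distribution along the lobule differed most between the times include targets of Wnt signalling in hepatocytes. Promoters of 3 of them are shown, the 250 bases before the start of each gene from RefSeq on build GRCm38.p6, because Axin2 is the general Wnt target, Lect2 the hepatocyte target with the matching pattern, and Hsd17b13 a portal gene that moved the other way. Capitals mark the words CTTTGA and CTTTGT, searched on both strands as the core of the TCF/LEF motif through which beta-catenin acts. Lines read 5′ to 3′ on the strand of the gene: chr11:108920099-108920348 (plus strand) for Axin2, chr13:56548539-56548788 (minus strand) for Lect2 and chr5:103977389-103977638 (minus strand) for Hsd17b13.
Axin2: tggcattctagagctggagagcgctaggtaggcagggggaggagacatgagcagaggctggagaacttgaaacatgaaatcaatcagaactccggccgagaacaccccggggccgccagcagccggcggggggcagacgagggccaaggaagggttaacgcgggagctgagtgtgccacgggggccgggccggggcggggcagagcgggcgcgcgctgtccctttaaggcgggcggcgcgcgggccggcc
Lect2: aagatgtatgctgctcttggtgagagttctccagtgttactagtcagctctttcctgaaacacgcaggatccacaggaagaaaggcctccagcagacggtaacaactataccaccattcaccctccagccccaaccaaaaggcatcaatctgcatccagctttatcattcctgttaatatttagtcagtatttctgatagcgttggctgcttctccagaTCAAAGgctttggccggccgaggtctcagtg
Hsd17b13: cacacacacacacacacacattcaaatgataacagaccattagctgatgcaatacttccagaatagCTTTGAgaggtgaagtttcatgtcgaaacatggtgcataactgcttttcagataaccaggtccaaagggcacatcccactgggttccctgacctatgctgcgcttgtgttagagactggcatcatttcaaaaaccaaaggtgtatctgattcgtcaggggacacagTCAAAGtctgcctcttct

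The window of Axin2 holds 0 such words, that of Lect2 holds 1, 31 bases before the start, and that of Hsd17b13 holds 2, the nearer 18 bases before the start. Of the 32851 promoters of that length in the table, 27.6% hold at least 1 word, as do 22.4% of the 85 promoters of the 71 panel genes it lists. The words are letters in a window and say nothing of binding.

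The slope of a gene along the lobule was measured in each section as log2 CPM in layer 5 minus layer 1, with CPM taken here, as elsewhere, relative to TMM-scaled totals (TMM is the trimmed-mean scaling over panel genes), so that a positive value means a central gene. The slope differed between 14 d and 0 h for 19 of 88 genes tested (21.6%; limma with Benjamini-Hochberg adjustment, adjusted p below 0.05): it was lower at 14 d for 16 genes (18.2%) and higher for 3 (3.41%). Scaling by cell number in place of TMM gave 16 and 3, all the same genes, and scaling by total counts gave 9 and 13. All 14 d slopes lay below both 0 h slopes for 38.6% of the genes tested and above both for 13.6%. Of 28 genes with a slope above 1 at 0 h, 27 were nearer zero at 14 d and the median slope went from 3.18 to 1.11. Of 28 genes with a slope below -1, 20 were nearer zero but the median stayed at -1.92 and -1.94. These counts and medians were taken with TMM scaling only. With total-count scaling slope changes moved up, for Vtn from 0.36 to 1.14, for Fbp1 from 0.37 to 1.15 and for Axin2 from -4.63 to -3.81. Over all 88 genes tested, 59 were nearer zero at 14 d. Both sets were picked by their own 0 h slopes, which by itself favours values nearer zero at 14 d. How much of the move comes from that choice was not tested. Of the pericentral hepatocyte genes on the panel, 11 of 16 tested had a lower slope at 14 d and none a higher one, with a median change of -2.94 against -0.37 over all genes tested. Of the genes listed as periportal, 1 of 11 had a higher slope (Hsd17b13) and 1 a lower one (Prodh), with a median change of 0.10. Despite its place on that list, Prodh was a central gene here at 0 h, with slopes of 1.39 and 2.09. With 2 sections against 3, an exact permutation test on 1 gene could not go below a one-sided p of 0.1.

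**Figure D2:**
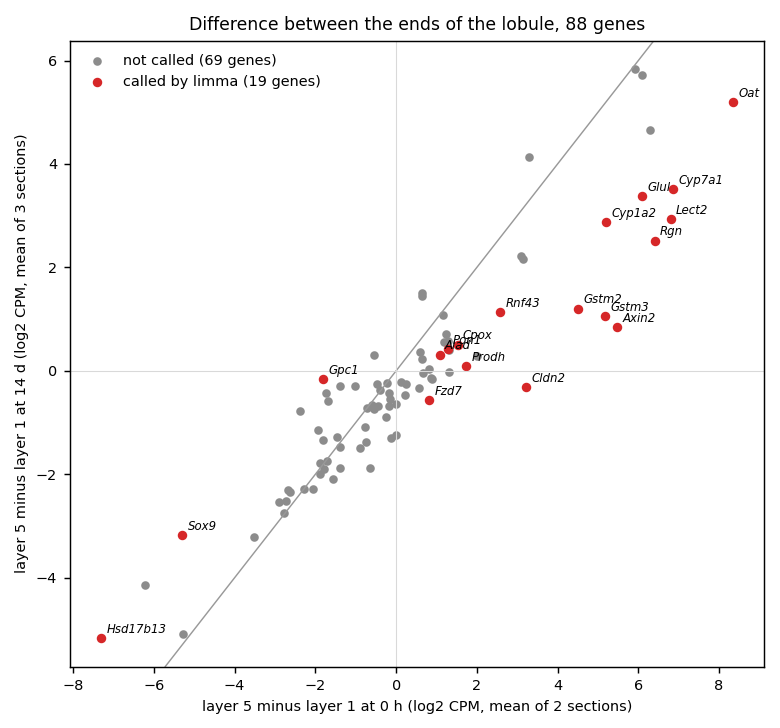
Slope along the lobule (log2 CPM in layer 5 minus layer 1) at 0 h, mean of 2 sections (x axis), against 14 d, mean of 3 sections (y axis), for 88 genes. The diagonal marks equal slopes, the 19 genes in red passed the test and the other 69 are grey. Of the 28 genes with a slope above 1 at 0 h, a set picked by that slope, 27 lie nearer zero at 14 d, against 59 of all 88. Axin2 falls from above 5 in both 0 h sections to at most 1.51 at 14 d, while Tbx3 lies close to the diagonal.

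Axin2, a scaffold of the complex that destroys beta-catenin and itself a target of the pathway, changed most. Its slope was 5.14 and 5.81 at 0 h and 1.51, 0.74 and 0.28 at 14 d, a change of -4.63 ± 0.42 (SE, adjusted p = 9.44e-05). In transcripts per 100 cells, Axin2 in layer 1 stood at 1.12 and 0.653 at 0 h and at 33.2, 52.4 and 57.3 at 14 d. In layer 5 it stood at 40.7 and 40.8 at 0 h and at 93.2, 98.7 and 76.6 at 14 d. Portal-side cells thus carried 2.74% and 1.60% of the central level per cell at 0 h, and 35.6%, 53.1% and 74.8% of it at 14 d, with no overlap between the groups.

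Rgn, a calcium-binding protein also called regucalcin, had slopes of 6.67 and 6.13 at 0 h and of 2.53, 2.39 and 2.63 at 14 d, a change of -3.89 ± 0.29 (adjusted p = 3.64e-05). Its layer 1 cells held 5.83 and 4.85 transcripts per 100 cells at 0 h and 164, 182 and 112 at 14 d. Those layer 1 levels were 0.979% and 1.34% of the layer 5 level at 0 h, and 17.6%, 16.9% and 14.7% at 14 d. Lect2, a secreted protein induced by beta-catenin in hepatocytes, went from slopes of 7.29 and 6.31 to 2.96, 2.85 and 3.00, a change of -3.87 ± 0.42 (adjusted p = 0.000236). Lect2 in layer 1 rose from 1.12 and 0.606 transcripts per 100 cells to 29.0, 28.0 and 18.1. Oat, the ornithine aminotransferase that feeds glutamate to the glutamine synthetase zone, had slopes of 7.97 and 8.71 and then 5.56, 4.95 and 5.06, a change of -3.15 ± 0.35 (adjusted p = 0.000236). Per cell these genes were highest in layer 5 in every section at both times, and the slopes of the 2 groups did not overlap for any of them.

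The mu-class glutathione transferases, which conjugate glutathione to reactive compounds, followed the same course. Gstm3 had slopes of 4.30 and 6.05 at 0 h and of 1.11, 0.94 and 1.13 at 14 d, a change of -4.12 ± 0.50 (adjusted p = 0.0005). In layer 1, Gstm3 stood at 8.06 and 2.89 transcripts per 100 cells at 0 h and at 236, 203 and 146 at 14 d, whereas in layer 5 it stood at 158 and 205 against 502, 439 and 352. Gstm2 changed by -3.32 ± 0.44 (adjusted p = 0.000627), with 8.16 and 3.31 transcripts per 100 layer 1 cells at 0 h and 233, 215 and 138 at 14 d. These 2 genes have closely similar sequences, and the labels do not say how well the probes tell them apart.

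Cldn2, the pore-forming claudin of tight junctions, had no positive slope in any 14 d section. Its slopes were 4.16 and 2.27 at 0 h and -0.41, -0.42 and -0.13 at 14 d, a change of -3.54 ± 0.53 (adjusted p = 0.00132). Per cell, Cldn2 was highest in layer 5 and layer 4 of the 0 h sections and in layer 3 of all 14 d sections. Layer 1 held 2.72 and 4.62 Cldn2 transcripts per 100 cells at 0 h and 64.9, 59.9 and 44.2 at 14 d, while layer 5 held 49.0 and 23.7 against 47.9, 50.5 and 44.3. The Wnt receptor Fzd7 likewise peaked, per cell, in layer 5 of both 0 h sections and in layer 3 of all 14 d sections, with slopes of 0.62 and 1.03 against -0.57, -0.66 and -0.47 and a change of -1.39 ± 0.29 (adjusted p = 0.00827). With total-count scaling the Fzd7 change was -0.61 and did not pass (adjusted p = 0.246).

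Cyp1a2, a cytochrome P450 that oxidises caffeine, and Glul, glutamine synthetase, remained strongly central with lower slopes. Cyp1a2 slopes were 4.66 and 5.75 at 0 h and 3.02, 2.63 and 2.96 at 14 d, a change of -2.33 ± 0.40 (adjusted p = 0.00304). Per 100 cells, Cyp1a2 in layer 5 stood at 641 and 361 at 0 h and at 396, 357 and 251 at 14 d, and in layer 1 at 25.5 and 6.34 against 49.6, 51.0 and 29.1. Glul slopes were 4.82 and 7.38 at 0 h and 3.89, 3.05 and 3.2 at 14 d, a change of -2.72 ± 0.70 (adjusted p = 0.0206). The call for Glul leaned on single sections: without 0 h section 2 the change was -1.22 (adjusted p = 0.105), and scaling by total counts gave -1.94 (adjusted p = 0.112). Without 14 d section 2 the Glul change was -2.42 (adjusted p = 0.0967) and without 14 d section 3 it was -2.63 (adjusted p = 0.0671).

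Cyp7a1, which controls the entry of cholesterol into bile acid synthesis, changed by -3.34 ± 0.64 (adjusted p = 0.00591), with slopes of 5.83 and 7.88 at 0 h and 3.41, 3.59 and 3.55 at 14 d. Its 0 h levels were uneven: layer 5 held 186 and 9.04 transcripts per 100 cells at 0 h and 412, 473 and 318 at 14 d, and layer 1 of 0 h section 2 held 0 counts. Without that section the change in Cyp7a1 was -2.09 (adjusted p = 0.0279). Smaller changes passed for Prodh, which starts proline breakdown (-1.65 ± 0.25, adjusted p = 0.00132), and for Rnf43, the ligase that removes Frizzled receptors (-1.43 ± 0.29, adjusted p = 0.00669). Both lost their call with total-count scaling, Prodh at -0.87 (adjusted p = 0.0981) and Rnf43 at -0.65 (adjusted p = 0.149). Rnf43 also lost it without 14 d section 2, at -1.17 (adjusted p = 0.0919).

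The slopes of Cpox and Alad, enzymes of heme synthesis, and of Pon1, an HDL-bound esterase, changed by -1.02 ± 0.26, -0.76 ± 0.19 and -0.86 ± 0.20 (adjusted p = 0.0206, 0.0187 and 0.0151). They passed in 6, 8 and 7 of the 20 alternatives tried. With total-count scaling the Cpox change was -0.24, the Pon1 change was -0.08 and that of Alad turned to 0.01. Cpox lost its call without 0 h section 2 (-0.82, adjusted p = 0.059), without 14 d section 1 (-1.05, adjusted p = 0.0656) and without 14 d section 2 (-0.73, adjusted p = 0.153). Alad lost it without 0 h section 2 (-0.35, adjusted p = 0.257) and without 14 d section 3 (-0.78, adjusted p = 0.0529), and Pon1 without 14 d section 1 (-0.86, adjusted p = 0.0528) or 2 (-0.68, adjusted p = 0.18).

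On the portal side, 3 genes with negative slopes at 0 h had flatter slopes at 14 d. Hsd17b13, a lipid-droplet retinol dehydrogenase, went from -7.54 and -7.07 to -5.47, -5.05 and -4.99, a change of 2.13 ± 0.38 (adjusted p = 0.00334). Its layer 5 cells held 1.99 and 1.63 transcripts per 100 cells at 0 h and 22.2, 38.7 and 22.1 at 14 d, while layer 1 held 383 and 212 against 1004, 1138 and 642. Sox9, a transcription factor of bile duct cells and of some portal hepatocytes, went from -5.11 and -5.49 to -3.55, -3.16 and -2.82 (change 2.12 ± 0.59, adjusted p = 0.0295), and Gpc1, a heparan sulfate proteoglycan, from -1.35 and -2.25 to -0.07, -0.45 and 0.03 (change 1.64 ± 0.41, adjusted p = 0.0187). Neither stayed called when 14 d sections were left out one at a time: Sox9 gave 2.30, 2.21 and 1.93 (adjusted p = 0.0528, 0.105 and 0.102) and Gpc1 gave 1.59, 1.90 and 1.54 (adjusted p = 0.0688, 0.0512 and 0.0671). Sox9 without 0 h section 2 gave 2.15 (adjusted p = 0.059). Its 0 h slopes rest on few layer 5 counts: together with Cldn7 it held 0.534 and 0.559 transcripts per 100 layer 5 cells. Gls2, the glutaminase that releases ammonia for the urea cycle, had slopes of -7.20 and -5.26 at 0 h and -4.53, -4.21 and -3.71 at 14 d, a difference of 2.08 ± 0.74 that did not pass (adjusted p = 0.0786). It passed with total-count scaling (2.79, adjusted p = 0.033) and with TMM without Cyp2e1 and Pck1 (2.48, adjusted p = 0.0408). With cell-number scaling it did not (2.08, adjusted p = 0.0917).

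**Figure D3:**
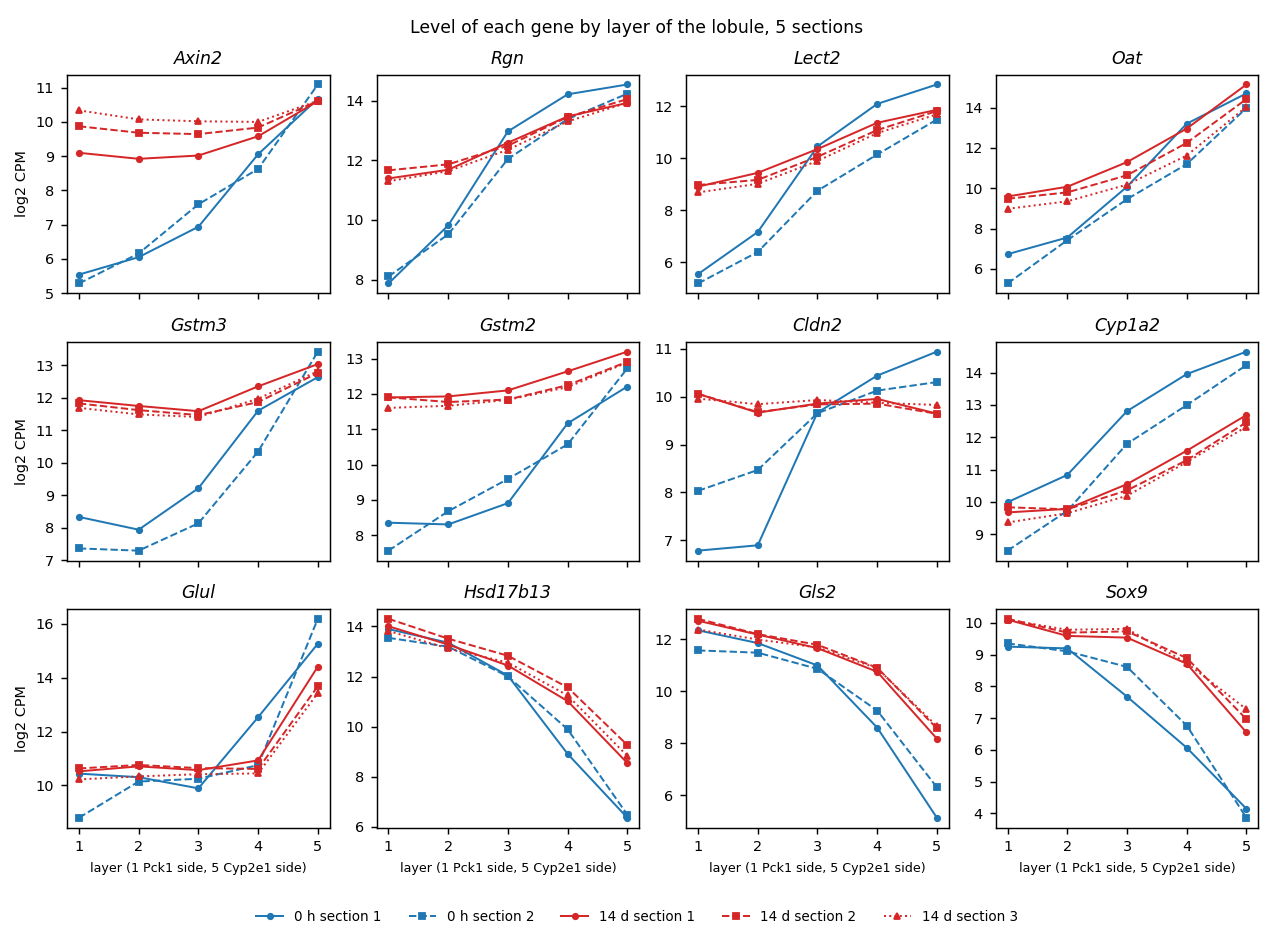
Level in log2 CPM (y axis) by lobule layer (x axis, layer 1 portal to layer 5 central) for 12 genes, with 1 line for each of the 2 sections at 0 h (blue) and the 3 at 14 d (red). The 14 d lines of Axin2, Rgn, Lect2, Gstm3 and Gstm2 lie above the 0 h lines in layer 1 and close to them in layer 5. Those of Hsd17b13, Gls2 and Sox9 lie above the 0 h lines in layer 5.

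For several other central genes no difference in slope passed the test with TMM scaling. Tbx3, a transcription factor of the innermost central hepatocytes that the ranking did not use, had slopes of 6.26 and 5.58 at 0 h and 6.23, 5.74 and 5.52 at 14 d, a difference of -0.09 ± 0.45 (adjusted p = 0.923). Its layer 1 level was 1.24% and 1.80% of the layer 5 level at 0 h and 1.20%, 1.45% and 1.79% at 14 d. The central endothelial ligands had slopes above zero in all 5 sections: Wnt9b differed by -0.36 ± 0.64 (adjusted p = 0.748), Wnt2 by 0.85 ± 0.33 (adjusted p = 0.103) and the R-spondin Rspo3 by -1.62 ± 0.64 (adjusted p = 0.106). The Wnt2 difference passed with total-count scaling (1.63, adjusted p = 0.0131) and with TMM without Cyp2e1 and Pck1 (1.25, adjusted p = 0.0299). With cell-number scaling it did not (0.97, adjusted p = 0.0917). The R-spondin receptor Lgr5 had slopes of 3.70 and 2.48 against 2.58, 2.28 and 1.81 (-0.86 ± 0.59, adjusted p = 0.316). Among the enzymes of the urea cycle, Cps1, Arg1 and Ass1 differed by 0.47, 0.22 and 0.03 (adjusted p = 0.222, 0.739 and 0.989). Of these, Cps1 passed with total-count scaling (1.25, adjusted p = 0.0106) and with TMM without Cyp2e1 and Pck1 (0.89, adjusted p = 0.0391). With cell-number scaling Cps1 did not pass (0.54, adjusted p = 0.196), and Arg1 and Ass1 passed with none of these scalings. Cyp2e1 chose the layers and was not tested here, so its values only describe the classes. In layer 1 it stood at 0.000427% and 0.000834% of its layer 5 level at 0 h. At 14 d it stood at 0.398%, 0.383% and 0.292% of that level.

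When only cells whose 10 nearest cells lay in the 2 layers at their own end were counted, a choice made after seeing the data, the slope change was -4.23 for Axin2, -5.02 for Rgn, -4.39 for Gstm3 and 3.19 for Hsd17b13. Of the 19 called genes, Cpox was the only one that this choice lost. When cells were placed by Cyp1a2, Oat, Glul, Gls2, Cps1 and Arg1 instead, 12 slopes were lower and 9 higher, Rgn changed by -1.91, and Cyp7a1 (-2.03, adjusted p = 0.112) and Fzd7 (-0.52, adjusted p = 0.207) did not pass. The placing genes stayed among the genes tested there. The called genes Cyp1a2, Oat and Glul then chose the layers themselves, so nothing is read from their passing. Axin2 passed in all 20 alternatives, between -4.97 and -3.71. Cldn2, Cyp1a2, Gstm2, Gstm3, Hsd17b13, Lect2, Oat and Rgn passed in 19 of 20, and were lost where the 3 sections at 14 d were summed to 1 library. For Cyp1a2 and Oat the 19 include the placing by genes that held them, which does not test them.

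Within each layer and over all cells, the counts of a section were summed and tested with edgeR's quasi-likelihood test after TMM scaling, so that a change is relative to the other panel genes (Benjamini-Hochberg adjustment, adjusted p below 0.05). Over all cells 16 genes were higher (16.2%) and 14 lower (14.1%) at 14 d of 99 tested. Layer 1 had 17 genes higher (18.7%) and 14 lower (15.4%) at 14 d of 91 tested, layer 2 had 20 (21.3%) and 15 (16%) of 94, and layer 3 had 13 (13.8%) and 14 (14.9%) of 94. Layer 4 had 16 (16.8%) and 11 (11.6%) of 95, and layer 5 had 17 (18.5%) and 12 (13%) of 92. Total-count scaling gave 24 higher and 5 lower, 25 and 6, 35 and 5, 48 and 4, and 51 and 4 in layers 1 to 5. Scaling by cell number gave 69 and 2, 72 and 2, 69 and 2, 61 and 2, and 59 and 2. Relative to TMM the median gene shifted up by 0.62, 0.52, 0.79, 1.05 and 0.99 with total counts and by 1.65, 1.52, 1.61, 1.44 and 1.26 per cell (log2). These counts include Cyp2e1, higher in layer 1 and lower in layers 3, 4 and 5, which its use in the ranking bears on. Without it, all 82 rises called within a layer were also called per cell, whereas of the 63 falls only those of C6 and G6pc were called per cell, and 41 turned positive. With each section left out in turn, 86 of these 145 calls passed every time, 21 of 30 in layer 1 and 13 of 28 in layer 5.

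**Figure D4:**
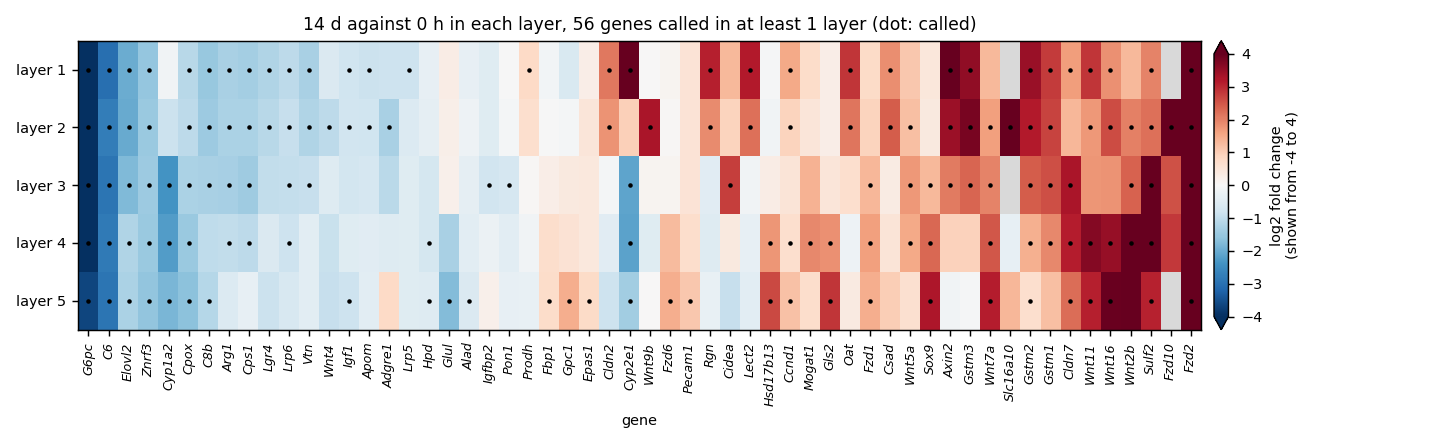
Log2 fold change at 14 d over 0 h after TMM scaling (colour, drawn from -4 to 4) in layers 1 to 5 (rows) for the 56 genes called in at least 1 layer (columns). Dots mark calls at adjusted p below 0.05 and grey marks genes not tested there. Axin2 and Rgn carry dots on the portal side and Gls2 and Hsd17b13 on the central side. Cyp2e1, which chose the layers, is drawn as a description, and of the 63 blue dots of other genes 41 turn positive when scaled by cell number, while those of C6 and G6pc stay called as falls.

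Central genes rose on the portal side. Leaving out Cyp2e1 and Pck1, 8 of 16 pericentral genes tested rose in layer 1 and 1 fell, beside 16 and 14 of all 89. Their median log2 fold change was 1.99 against -0.02 over all genes. In layer 2, 9 of 17 rose and 1 fell, beside 20 and 15 of all 92 (median 1.79 against 0.09). Axin2 in layer 1 stood at 36.4 and 34.2 CPM at 0 h and 351, 607 and 964 at 14 d, a log2 fold change of 4.17 ± 0.56 (adjusted p = 1.09e-05). Gstm3 stood at 263 and 152 CPM against 2502, 2356 and 2464 (3.55 ± 0.31, adjusted p = 5.46e-08), and Rgn at 190 and 254 CPM against 1733, 2110 and 1882 (3.11 ± 0.38, adjusted p = 4.38e-06). In these 3 genes every 14 d section lay above both 0 h sections, as was so, by any amount, for 33% of the genes tested in that layer. Gstm2 (3.46 ± 0.37), Lect2 (3.18 ± 0.50), Oat (2.86 ± 0.51), Gstm1 (2.80 ± 0.54), Cldn2 (2.12 ± 0.43) and Csad, which makes the taurine precursor (1.87 ± 0.48), rose there too. In layer 2, Gstm3 rose by 3.78 ± 0.34, Axin2 by 3.42 ± 0.49 and Rgn by 1.89 ± 0.36, and the calls there of Lect2 (2.21) and Oat (2.13) were lost without 0 h section 2 (1.74 and 1.89, adjusted p = 0.0566 and 0.0534). Cyp1a2 and Glul were not called in layer 1 after TMM scaling: Cyp1a2 stood at -0.13 ± 0.36 (adjusted p = 0.843) but turned to 1.44 per cell (adjusted p = 0.019), and Glul stood at 0.30 ± 0.38 (adjusted p = 0.557) and at 1.85 per cell (adjusted p = 0.0056).

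Toward the central vein these rises shrank. Axin2 rose by 2.09 ± 0.44 in layer 3, and stood at 0.91 ± 0.39 in layer 4 (adjusted p = 0.116) and at -0.15 ± 0.28 in layer 5 (adjusted p = 0.68), where scaling by cell number turned it to 1.13. Gstm3 went from 2.34 ± 0.43 in layer 3 to 0.91 ± 0.37 in layer 4 (adjusted p = 0.0999) and -0.06 ± 0.23 in layer 5 (adjusted p = 0.854), where its value per cell was 1.25. Rgn stood at -0.30 ± 0.21 in layer 5 (adjusted p = 0.297) and at 0.95 per cell. The difference between the ends is the one tested as the slope.

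On the central side, Hsd17b13 and Gls2, genes of the portal program, rose. As a list the periportal genes stood near the share of all genes in layer 5: without Pck1, 3 of 11 rose and 3 fell (G6pc, Hpd and Igf1), beside 18.5% and 13% of all genes, with a median of -0.33 against -0.02. Hpd, though on that list, had slopes above zero at 0 h (0.26 and 1.08). The fall of Hpd was lost whichever section was left out (-0.63 to -0.50, adjusted p between 0.0688 and 0.123), and that of Igf1 was lost without 0 h section 1 (-0.62, adjusted p = 0.0998) or any 14 d section (adjusted p = 0.0793, 0.0839 and 0.0506). Hsd17b13 in layer 5 stood at 57.2 and 58.6 CPM at 0 h and 286, 469 and 338 at 14 d (2.65 ± 0.38, adjusted p = 0.00148), and Gls2 at 23.7 and 51.9 CPM against 222, 290 and 300 (2.85 ± 0.60, adjusted p = 0.00795). Fbp1, fructose-1,6-bisphosphatase of gluconeogenesis, stood at 7844 and 8596 CPM against 12970, 13748 and 14568 (0.74 ± 0.19, adjusted p = 0.0181), a call lost without 14 d section 2 (0.74, adjusted p = 0.0533) or 3 (0.62, adjusted p = 0.13). In layer 1 none of these genes was called, with Hsd17b13 at -0.03 ± 0.23 and Gls2 at 0.28 ± 0.26. All 14 d sections lay above both 0 h sections for 31.5% of the genes tested in layer 5. Sox9 rose by 3.23 ± 0.57 in layer 5 (adjusted p = 0.00367) and by 2.29 ± 0.47 in layer 4, against 0.44 ± 0.35 in layer 1 (adjusted p = 0.321). The layer 5 change rests on few 0 h counts. Sox9 and Cldn7 together held 0.534 and 0.559 transcripts per 100 layer 5 cells at 0 h, and 7.85, 10.6 and 10.5 at 14 d.

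The falls in layer 5 took in both Cyp1a2 and Glul. Cyp1a2 in layer 5 stood at 18429 and 12977 CPM at 0 h and at 5102, 4326 and 3842 at 14 d, a log2 fold change of -1.83 ± 0.21 (adjusted p = 0.00044), and fell by 2.24 and 2.39 in layers 4 and 3. Scaled by cell number its layer 5 change was -0.58 (adjusted p = 0.095), which did not pass. Glul in layer 5 stood at 28089 and 50178 CPM against 16834, 10070 and 8240 (-1.74 ± 0.42, adjusted p = 0.0157), at -0.41 per cell, and lost its call without 0 h section 2 (-1.26, adjusted p = 0.0775). No section at 14 d reached a 0 h section in CPM of Cyp1a2 or Glul in layer 5, as was so for 25% of the genes tested there, but per cell the sections overlapped.

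Some genes moved alike at every position. C6, a subunit of the membrane attack complex of complement, was lower in all 5 layers with all 3 scalings. In layer 1, C6 stood at 514 and 237 transcripts per 100 cells at 0 h and 146, 172 and 113 at 14 d, and in layer 5 at 708 and 435 against 164, 204 and 165. The log2 fold changes of C6 lay between -3.01 ± 0.24 in layer 1 and -2.78 in layer 2 after TMM scaling, and were -1.39 and -1.69 per cell in layers 1 and 5 (adjusted p = 0.0027 and 0.0016). G6pc, the last enzyme of glucose release, was also lower in all layers, but the 0 h sections lay far apart in layer 1, at 20778 and 251190 CPM, against 5284, 5958 and 6850 at 14 d. Its layer 1 change of -4.49 ± 1.06 (adjusted p = 0.0215) was -1.81 without 0 h section 2 (adjusted p = 0.00676), and adjusted p lay between 0.074 and 0.0768 when any 14 d section was left out. In layer 2 the G6pc call was likewise lost without 14 d section 1, 2 or 3 (adjusted p = 0.0798, 0.0807 and 0.0827), and in layer 3 without section 1 or 2 (adjusted p = 0.0555 and 0.078). Without 0 h section 2, G6pc in layers 2 to 5 changed by -2.03 (adjusted p = 0.0623), -2.30, -2.23 and -2.29.

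Elovl2, which lengthens polyunsaturated fatty acids, Znrf3, the partner of Rnf43, and Cpox fell in all 5 layers after TMM scaling. In layer 1, Elovl2 stood at 10827 and 10033 CPM at 0 h and 2358, 2781 and 2706 at 14 d (-2.0 ± 0.22, adjusted p = 1.38e-06). Per 100 cells that was 332 and 191 against 223, 240.1 and 161, and the sections overlapped (-0.33, adjusted p = 0.41). Cps1 and Arg1, enzymes of the urea cycle, fell by 1.35 ± 0.27 and 1.28 ± 0.22 in layer 1 after TMM scaling but stood at 0.43 and 0.46 per cell. The same turn of sign per cell held in layer 1 for C8b (0.24), Vtn (0.48), Lrp6 (0.65), Lgr4 (0.43), Cpox (0.54), Apom (0.97), Igf1 (0.81) and Znrf3 (0.10). A fall after TMM scaling is a smaller part of the panel counts. In layer 1 the falls of Apom were lost without 0 h section 2 (-0.24, adjusted p = 0.324), 14 d section 2 or 3 (adjusted p = 0.0884 and 0.0714) and those of Lgr4 without 14 d section 2 (-1.15, adjusted p = 0.0768).

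**Figure D5:**
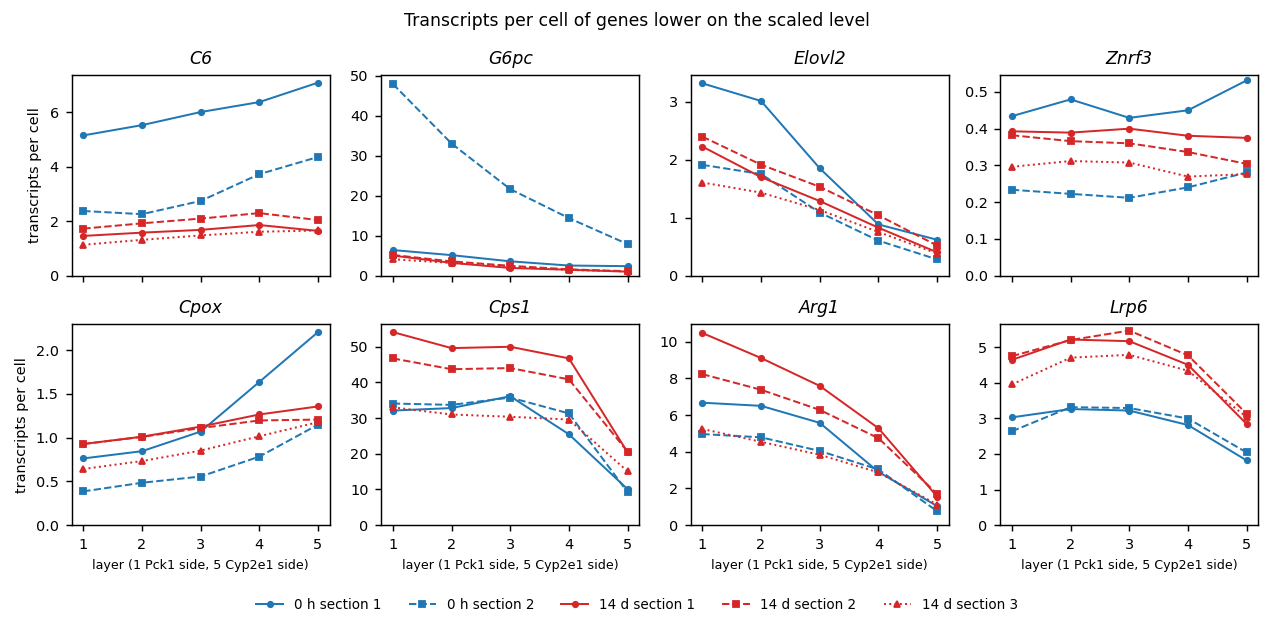
Transcripts per cell (y axis) by lobule layer (x axis, layer 1 portal to layer 5 central) for 8 genes that fell after TMM scaling, in the 2 sections at 0 h (blue) and the 3 at 14 d (red). C6 is lower per cell at 14 d in every layer. All 14 d lines of Lrp6 lie above the 0 h lines, and 14 d sections 1 and 2 of Cps1 and Arg1 do, the opposite of their direction after TMM scaling.

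Among Wnt receptors, Fzd2 rose in all 5 layers. It had 0 counts in both 0 h sections in layers 1, 3, 4 and 5 and 1 count in layer 2, against 243 counts over the 3 sections at 14 d in layer 1 and 274 in layer 2. With a floor of 3 counts over both 0 h sections and TMM-scaled totals, this was at least 12.9-fold higher in layer 1, 16.6-fold in layer 3, 13.03-fold in layer 4 and 8.67-fold in layer 5, and 47.9-fold in layer 2 (95% counting interval 8.52 to 1898). In layer 5 the Fzd2 call was lost without 0 h section 1 (adjusted p = 0.0748) or 2 (adjusted p = 0.0606). Fzd1 rose in layers 3, 4 and 5, by 1.31 ± 0.34, 1.65 ± 0.29 and 1.46 ± 0.30, and without 0 h section 1 stood at 0.93 in layer 3 (adjusted p = 0.0509) and lost its call there without each 14 d section too (1.28, 1.30 and 1.29, adjusted p = 0.0553, 0.0683 and 0.0522). Lrp6, the Wnt co-receptor, fell after TMM scaling in layers 1 to 4, by 1.06 ± 0.24 in layer 1, but stood at 0.62 to 0.66 per cell. In layer 4 the Lrp6 call was lost without 0 h section 2 (-0.77, adjusted p = 0.0685) and without each 14 d section (adjusted p = 0.127, 0.149 and 0.0516).

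The Wnt ligands that rose are counted among low-abundance genes. The noncanonical ligand Wnt11 rose in layers 1, 2, 4 and 5, with 0.437 and 0.186 transcripts per 100 layer 1 cells at 0 h and 5.88, 8.001 and 6.71 at 14 d (2.85 ± 0.56, adjusted p = 0.000549). Wnt16 rose in the same 4 layers and Wnt5a in layers 2, 3 and 4, by 1.20 ± 0.38, 1.74 ± 0.37 and 1.51 ± 0.37. Of the canonical ligands and R-spondins on the panel, 0 of 11 tested were called in layer 1 by edgeR. Of all genes tested there, 18.7% were called higher and 15.4% lower. At an unadjusted edgeR p below 0.05 there were 5 of the 11, but all genes were not counted at that threshold, so nothing is read from it. Wnt2b and Wnt7a rose in layers 2, 3 and 4, while Wnt7a rose in layer 5 as well. Wnt9b rose in layer 2 from 2 counts over both 0 h sections to 121 over the 3 sections at 14 d, a ratio of 10.6 (counting interval 2.86 to 88.3). Sulf2, a sulfatase that trims heparan sulfate chains, rose in all 5 layers, by 4.36 ± 0.83 in layer 3. Many of these calls were lost when 1 section was left out. Without 0 h section 1 the call was lost for Wnt16 in layer 1 (1.69, adjusted p = 0.0635), Wnt11 in layer 2 (1.38, adjusted p = 0.11), Wnt5a in layer 2 (1.06, adjusted p = 0.0575), Wnt9b in layer 2 (3.16, adjusted p = 0.0761), Wnt7a in layers 3 and 4 (1.37 and 1.63, adjusted p = 0.0799 and 0.135) and Wnt2b in layers 3 and 4 (1.54 and 3.28, adjusted p = 0.0799 and 0.113). Without 0 h section 2 it was lost for Wnt16 in layers 2 and 5 (2.29 and 3.16, adjusted p = 0.0746 and 0.0606), Wnt9b in layer 2 (3.38, adjusted p = 0.0606), Wnt7a in layer 5 (2.70, adjusted p = 0.0583) and Sulf2 in layers 1 and 2 (1.15 and 1.47, adjusted p = 0.14 and 0.135). Leaving out a 14 d section also ended calls, with adjusted p between 0.0506 and 0.0914: section 1 for Wnt5a in layer 2 and Sulf2 in layer 1, section 2 for Wnt5a, Wnt11, Wnt7a and Sulf2 in layer 2, Wnt7a in layers 3 and 4 and Sulf2 in layer 1, and section 3 for Wnt5a and Wnt11 in layer 2, Wnt16 in layers 1 and 5, Wnt5a, Wnt7a and Wnt2b in layer 4 and Sulf2 in layer 1.

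Ccnd1, cyclin D1 of the G1 phase, rose in layers 1, 2, 4 and 5. Per cell it was highest in layer 3 or 4 in every section, and in layer 3 it stood at 107 and 61.7 transcripts per 100 cells at 0 h and 364, 408 and 326 at 14 d. In layer 1 it rose from 31.9 and 11.1 to 191, 193 and 163 per 100 cells (1.52 ± 0.32, adjusted p = 0.000878) and in layer 5 from 27.4 and 29.8 to 148, 174 and 144 (1.16 ± 0.24, adjusted p = 0.00795). In layer 2 the change of 0.88 ± 0.29 was 0.45 without 0 h section 2 (adjusted p = 0.135), and did not pass without 14 d section 2 or 3 (adjusted p = 0.0722 and 0.0665). In layer 4 the change of 0.67 ± 0.21 was 0.51 without 0 h section 1 (adjusted p = 0.147) and 0.65 without 0 h section 2 (adjusted p = 0.0795), and was lost without 14 d section 2 or 3 (adjusted p = 0.0898 and 0.122). In layer 3 Ccnd1 stood at 0.52 ± 0.24 (adjusted p = 0.131). Ccne1, cyclin E1, was called in none of the layers, at 0.67 ± 0.57 in layer 1 (adjusted p = 0.357).

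The remaining gene lists were counted at both lobule ends after TMM scaling, the scaling under which 41 of the 63 falls turned positive per cell. Of all genes tested, 18.7% rose and 15.4% fell in layer 1 and 18.5% and 13% in layer 5, so that a list with 1 call among 4 to 8 members stands near the share of all genes. All 3 glutathione transferases rose in layer 1 (median 3.46), 1 of 3 did in layer 5 (Gstm2, at 0.66), and the slope fell for 2 of 3. Of 8 genes of the urea cycle and nitrogen metabolism, 2 rose (Oat and Prodh) and 2 fell (Arg1 and Cps1) in layer 1, 1 rose (Gls2) and 2 fell (Glul and Hpd) in layer 5, and 3 slopes fell (Glul, Oat and Prodh). Of 4 genes of bile acid and sulfur amino acid metabolism, Csad rose in layer 1, none was called in layer 5, and the slope of Cyp7a1 fell. Of 2 genes of glucose production besides Pck1, G6pc fell at both ends and Fbp1 rose in layer 5. Of 8 lipid and HDL genes, Apom and Elovl2 fell in layer 1, while Hsd17b13 rose and Elovl2 fell in layer 5. Of the 5 heme and mitochondrial genes, Cpox fell at both ends and Alad in layer 5. Igf1 was the 1 of 4 growth factor genes called at either end. Both claudins, Cldn2 and Cldn7, rose in layer 1 and Cldn7 in layer 5. Of 9 Wnt targets and feedback genes, 3 rose (Axin2, Ccnd1 and Lect2) and 1 fell (Znrf3) in layer 1, 2 rose (Ccnd1 and Sox9) and 2 fell (Glul and Znrf3) in layer 5, and 4 slopes fell and 1 rose. Of the 5 noncanonical Wnt ligands, 2 rose at each end, and of the Wnt receptors 1 of 13 rose and 3 fell in layer 1 (Lgr4, Lrp5 and Lrp6) and 3 of 12 rose in layer 5 (Fzd1, Fzd2 and Fzd6). Without 0 h section 2 the calls in layer 1 of Prodh (0.36, adjusted p = 0.131) and Cldn7 (1.11, adjusted p = 0.0532) were lost, and without 0 h section 1 those in layer 5 of Gstm2 (0.46, adjusted p = 0.105) and Cldn7 (1.65, adjusted p = 0.0909). Without 14 d sections 1, 2 and 3 in turn, Prodh in layer 1 (adjusted p = 0.059, 0.0504 and 0.0807) and Gstm2 in layer 5 (adjusted p = 0.0687, 0.0839 and 0.0574) were lost each time. Cldn7 was lost without 14 d section 2 in layer 1 (adjusted p = 0.0513) and without section 2 or 3 in layer 5 (adjusted p = 0.0539 and 0.0725). Lrp5 in layer 1, at -0.82, stood at -0.03 without 0 h section 2 (adjusted p = 0.929), turned to 0.03 with total-count scaling and to 1.01 per cell, and did not pass without any one 14 d section. Fzd6 in layer 5 was lost without 0 h section 1 (1.33, adjusted p = 0.0748) or any 14 d section (adjusted p = 0.0688, 0.0926 and 0.0746), and Alad there without 0 h section 2 (-0.43, adjusted p = 0.0775) or 14 d section 2 or 3 (adjusted p = 0.129 and 0.0506).

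Markers of other cell types were summed as a share of all counts, in which Cyp2e1 alone took 67.3% and 62.7% in layer 5 at 0 h and 48.2%, 48.8% and 50.04% at 14 d, so that a share there can rise with no rise in the marker. The endothelial markers Pecam1, Wnt2, Wnt9b and Rspo3, 4 of 8 on the list, took 0.186% and 0.293% of the counts in layer 5 at 0 h and 0.801%, 0.818% and 0.872% at 14 d, and in layer 1 0.208% and 0.0453% against 0.227%, 0.268% and 0.258%. Per 100 layer 5 cells their sum was also higher, at 94.5 and 130 transcripts at 0 h and 496, 505 and 427 at 14 d. All panel counts per layer 5 cell stood at 507 and 445 against 619, 617 and 490.3. Pecam1 rose by 1.07 ± 0.29 in layer 5 (adjusted p = 0.0215), a call lost without 14 d section 2 (adjusted p = 0.0615) or 3 (adjusted p = 0.0506), while Wnt2, Wnt9b and Rspo3 stood at 0.36, 0.02 and -0.08 and were not called (median of the 4 markers 0.19). The macrophage and leukocyte markers Adgre1, Lyz2 and Ptprc, 3 of 7, took 0.122% and 0.274% in layer 5 at 0 h and 0.740%, 0.995% and 0.894% at 14 d, with none of the 3 genes called there after TMM scaling (median 0.84). Per 100 layer 5 cells these markers summed to 61.6 and 122 transcripts at 0 h and to 458, 615 and 438 at 14 d. The cholangiocyte markers Sox9 and Cldn7, 2 of 6, took 0.0524% and 0.0328% in layer 1 against 0.0987%, 0.0951% and 0.0964%, and 0.00105% and 0.00126% in layer 5 against 0.0127%, 0.0172% and 0.0214%. Lrat, the 1 of 6 stellate cell markers on the panel, took 0.0858% and 0.139% in layer 5 against 0.142%, 0.157% and 0.178%, but stood lower after TMM scaling, at -0.51 ± 0.33 (adjusted p = 0.26). The sums mix hepatocytes with such cells, a change in cell numbers and one in RNA per cell cannot be told apart in them, and the part of these cells in the changes of Sox9, Ccnd1 and the Wnt genes was not tested.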

How the data were processed

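Frozen sections were imaged by Molecular Cartography, and the authors deposited, per section, transcript counts for a 100-gene panel in each cell, with a position in each cell name. These counts are not normalized. How spots were decoded and cells outlined is not described in the labels, and spots outside cells were not used. The members and gene lists were chosen with earlier results of these data known.

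Counts were summed over the cells of a layer in each section. The 2 sections at 24 h, numbered as parts of 1 position, were summed, which left 12 libraries at 7 times, with 5 residual degrees of freedom. Genes with 10 counts in 2 libraries were fitted with edgeR 4.0.16 (TMM scaling, robust quasi-likelihood test) in R 4.3.3. The standard error is the log2 fold change divided by the root of F. The slope, log2 CPM with a prior count of 2 in layer 5 minus layer 1, was fitted with limma 3.58.1 (trend and robust) without Cyp2e1 and Pck1. P-values were Benjamini-Hochberg adjusted over all genes of a fit, with a threshold of 0.05. On simulated data a 3-fold change was recovered for 87.8% of changed genes in layer 1, with 5.14% false calls, and for 60.2% in the slope, with 5.79%. The simulation gave all genes and sections the same spread and no slide effect, and drew the layers of a section independently. Its shares of false calls therefore need not hold for these sections.

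Genes were named mostly by size of change: up to 10 rises and 10 falls per fit that passed with no overlap between groups. To these were added Cyp2e1, Pck1, Glul, Cyp1a2, Axin2, Cps1, Arg1, Ass1, Ccnd1, Gstm3, C6, Fzd2 and up to 4 members of each list. For the slope, overlap was not a bar and every called gene is given. Tbx3, Lgr5, Wnt2, Rspo3, Epas1 and Fads1 were among the genes picked outside this rule. Lists covered central and portal hepatocyte genes, Wnt ligands, receptors and targets, cell cycle, nitrogen and glucose metabolism, bile acids, glutathione transferases, lipids, complement, heme, growth factors, tight junctions and markers of other cells. Alternatives were total-count and cell-number scaling, DESeq2 1.42.0, other filters, cell minimums and placing genes, blocks and leaving out each section. Counting intervals cover counting error only.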

Additional observations from a re-analysis of the deposited data

Results flagged for a closer look

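For 19 genes the change at 14 d differed between the lobule ends by the test of the difference itself, the slope tested in limma. The change in layer 5 minus that in layer 1 (log2) was -4.63 for Axin2, -4.12 for Gstm3, -3.89 for Rgn, -3.87 for Lect2, -3.54 for Cldn2, -3.34 for Cyp7a1, -3.32 for Gstm2, -3.15 for Oat, -2.72 for Glul and -2.33 for Cyp1a2. It was -1.65 for Prodh, -1.43 for Rnf43, -1.39 for Fzd7, -1.02 for Cpox, -0.86 for Pon1 and -0.76 for Alad. It was 2.13 for Hsd17b13, 2.12 for Sox9 and 1.64 for Gpc1. Groups of 2 and 3 sections were too small to look for a section far from the others. The spread was unequal. Over all cells the 0 h sections differed by a root mean square of 0.99 in log2 CPM across genes. Among the 14 d sections it was 0.38, 0.41 and 0.30, and between a 0 h and a 14 d section 1.14 to 1.51.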

How the results depend on the processing

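The direction and the side of the threshold were unchanged for 3236 gene values over all alternatives, 512 lost their call, 60 gained one and 72 changed sign. Of the counts of calls, 181 stayed within 1.5 times and 77 moved. Counts below are given as higher and lower, over all cells, then in layers 1 to 5, then for the slope. With 3 sections against 2, depth limits genes near 0 counts at 0 h, whose fold changes are bounds.

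Total-count scaling gave 39 and 5, 24 and 5, 25 and 6, 35 and 5, 48 and 4, 51 and 4, and 13 and 9. Cell-number scaling gave 76 and 2, 69 and 2, 72 and 2, 69 and 2, 61 and 2, 59 and 2, and 3 and 16. Summing the 14 d sections to 1 library, so that its spread is assumed to be that of the other groups, gave 10 and 5, 11 and 3, 13 and 4, 5 and 6, 0 and 1, 1 and 1, and 0 and 1. Deviations from the group mean correlated over genes at 0.06 between the sections numbered 1 and at -0.27 between those numbered 2. With 2 sections at 0 h these values are not independent and cannot exclude a pairing. The replicate block gave 14 and 10, 16 and 9, 15 and 9, 7 and 8, 11 and 9, 8 and 5, and 1 and 9. Slide as a random block left 6 falls in layer 4 and, for the slope, 1 rise and 12 falls. TMM without Cyp2e1 and Pck1 gave 18 falls in layer 4 and 10 slopes higher. Requiring 50 counts in 5 libraries gave 6 rises in layer 4, 10 in layer 5 and 13 slopes higher. No filter gave 8 slopes higher, the 0 h and 14 d sections alone 7, cells with 200 counts 15 and 20 rises in layer 3, other placing genes 9, and inner cells 6. Causes were not tested.

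Leaving out 1 section gave rises between 13 and 26 over all cells, 14 and 29, 13 and 25, 10 and 18, 10 and 19, and 9 and 18 in layers 1 to 5, and 1 to 9 slopes higher. Falls lay between 10 and 22 over all cells, 10 and 21, 10 and 20, 10 and 23, 7 and 19, and 8 and 17 in the layers, and 12 to 34 slopes were lower. The most falls over all cells, 22, came without 0 h section 2, and the most lower slopes, 34, without 0 h section 1, as did the 26 and 29 rises over all cells and in layer 1.

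With total-count scaling signs changed, over all cells taking Igf1 to 0.13. In layer 3 it took Igfbp2 to 0.027 and Pon1 to 0.13. In layer 4 it took Arg1 to 0.10, Cps1 to 0.038, Hpd to 0.35 and Lrp6 to 0.26. In layer 5 it took Alad to 0.41, Axin2 to 0.85, Cps1 to 0.67, Gstm3 to 0.95, Hpd to 0.46 and Igf1 to 0.15. For the slope it took Alad to 0.014. With cell-number scaling signs changed, over all cells taking Arg1 to 0.40, C8b to 0.27, Cpox to 0.070, Cps1 to 0.40, Igf1 to 0.79, Lrp6 to 0.64, Pck1 to 1.07 and Vtn to 0.60. In layer 1 it took Apom to 0.97, Arg1 to 0.46, C8b to 0.24, Cpox to 0.54, Cps1 to 0.43, Cyp1a2 to 1.44, Igf1 to 0.81, Lgr4 to 0.43, Lrp6 to 0.65, Pck1 to 1.16, Vtn to 0.48 and Znrf3 to 0.097. In layer 2 it took Adgre1 to 0.23, Apom to 0.81, Arg1 to 0.31, C8b to 0.13, Cpox to 0.46, Cps1 to 0.32, Igf1 to 0.75, Lgr4 to 0.39, Lrp6 to 0.62, Pck1 to 1.16, Vtn to 0.37, Wnt4 to 0.44 and Znrf3 to 0.019. In layer 3 it took Arg1 to 0.30, C8b to 0.31, Cpox to 0.34, Cps1 to 0.21, Igfbp2 to 0.86, Lrp6 to 0.66, Pck1 to 1.06, Pon1 to 0.95, Vtn to 0.70 and Znrf3 to 0.15. In layer 4 it took Arg1 to 0.53, Cps1 to 0.46, Elovl2 to 0.23, Hpd to 0.75 and Lrp6 to 0.64. In layer 5 it took Alad to 0.68, Axin2 to 1.13, C8b to 0.15, Cps1 to 0.95, Gstm3 to 1.25, Hpd to 0.74 and Igf1 to 0.39. Placing cells by other genes turned Cyp2e1 in layer 1 to -0.31 and in layer 2 to -0.94. With the 14 d sections as 1 library, the slope of Alad turned to 0.058.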

Other observations

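Complement and plasma protein genes took a smaller part of the panel at 14 d at several positions. All 3 genes of that list on the panel (C6, C8b and Vtn) fell in layers 1, 2 and 3, beside 15.4% of all genes in layer 1, C6 and C8b fell in layer 5 (list median -1.16), and no slope of the 3 was called with TMM scaling. The slope of Vtn passed with total-count scaling (1.14, adjusted p = 0.0187) and with TMM without Cyp2e1 and Pck1 (0.77, adjusted p = 0.0316). With cell-number scaling it did not (0.42, adjusted p = 0.264). Without 0 h section 2 the calls of C8b in layer 5 (-0.69, adjusted p = 0.108) and of Vtn in layer 3 (-0.50, adjusted p = 0.168) were lost, as they were without 14 d section 2 (adjusted p = 0.0615 and 0.078), and that of Vtn also without 14 d section 1 or 3 (adjusted p = 0.0873 and 0.0681). C8b, a subunit of the membrane attack complex, stood in layer 1 at 26605 and 37834 CPM at 0 h and at 11481, 11334 and 11146 at 14 d (-1.51 ± 0.23, adjusted p = 5.63e-05). Vtn, vitronectin, stood at 122060 and 236550 CPM against 62242, 77426 and 79692 (-1.29 ± 0.30, adjusted p = 0.0019), and without 0 h section 2 its change was -0.77. Scaled by cell number both turned positive, C8b to 0.24 and Vtn to 0.48. Igf1, the circulating growth factor made by hepatocytes, stood at 26700 and 20907 CPM in layer 1 against 11584, 14152 and 14942 (-0.81 ± 0.23, adjusted p = 0.0102), at 0.81 per cell, and its call was lost without 0 h section 1 (-0.43, adjusted p = 0.145) or 14 d section 1 (-0.71, adjusted p = 0.059).

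Epas1, the hypoxia-inducible factor HIF-2 alpha, rose in layer 5, with 80.4 and 105 transcripts per 100 cells at 0 h and 387, 437 and 341 at 14 d (0.77 ± 0.24, adjusted p = 0.0387), a call lost without 0 h section 1 (0.46, adjusted p = 0.0928) or any 14 d section (adjusted p = 0.0674, 0.133 and 0.126). Fads1, the delta-5 desaturase that acts next to Elovl2, was called in no layer after TMM scaling, at -0.38 ± 0.25 in layer 1 (adjusted p = 0.254) and 1.38 per cell. Mogat1, a monoacylglycerol acyltransferase, rose in layer 4 from 0.243 and 0.373 transcripts per 100 cells to 2.92, 4.32 and 2.81 (1.94 ± 0.55, adjusted p = 0.0265), a call lost without 0 h section 1 (1.48, adjusted p = 0.125), 14 d section 2 (adjusted p = 0.0787) or 14 d section 3 (adjusted p = 0.0736).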
